A study of Mus musculus with 7 samples.

Results

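The genes described here are the 10 CC chemokine genes Ccl2, Ccl3, Ccl4, Ccl5, Ccl6, Ccl7, Ccl8, Ccl9, Ccl11 and Ccl12, taken by name from the 57010 gene identifiers of a mouse adipocyte RNA-seq count table. They were read in 3 FFA2 fl/fl control libraries and 4 Adipoq-F2-KO libraries. Both groups were male mice, littermates housed together and killed at 20 weeks of age after normal chow only, and both carried floxed alleles of the free fatty acid receptor FFA2 (gene symbol Ffar2). In the Adipoq-F2-KO mice a Cre transgene under the adiponectin promoter deletes the floxed gene in cells that use that promoter, mainly mature adipocytes. Other cells are not targeted. Mature adipocytes were freed from perigonadal fat with collagenase, and polyadenylated RNA of the isolate was sequenced as 1 bulk library per sample. The labels title each library as a mouse sample and do not say how many animals it holds, so the p-values measure only the spread between these samples.

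Chemokines are small secreted proteins that direct the migration of leukocytes through G protein-coupled receptors. The CC subfamily is named for a pair of adjacent cysteines near the start of the mature protein. In fat, adipocytes, stromal cells and resident macrophages all release CC chemokines, and the members that bind CCR2 are best known there for drawing in blood monocytes. The 10 members form 2 gene clusters on chromosome 11. Ccl2, Ccl7, Ccl11, Ccl12 and Ccl8, the monocyte chemoattractant and eotaxin group, lie in that order within 81229 bases (11:81926397-82007625). Ccl5, Ccl9, Ccl6, Ccl3 and Ccl4, the RANTES and macrophage inflammatory protein group, lie within 138906 bases (11:83416604-83555509), and 1408978 bases separate the clusters. These coordinates are those of the deposited table, and they differ from the GRCm38 positions of the same genes although the submitters' processing notes name GRCm38 and mm10.

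The shared coding feature that names the family is given here as a 36-base stretch of the coding sequence of 9 members, read 5′ to 3′ on the coding strand from the GENCODE M21 transcripts on GRCm38, with the codons of the adjacent cysteines in capitals.
Ccl2: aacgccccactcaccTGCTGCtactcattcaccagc
Ccl7: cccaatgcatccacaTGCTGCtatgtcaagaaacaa
Ccl11: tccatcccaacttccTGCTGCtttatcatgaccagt
Ccl12: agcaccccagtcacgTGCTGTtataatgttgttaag
Ccl8: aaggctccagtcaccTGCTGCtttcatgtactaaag
Ccl5: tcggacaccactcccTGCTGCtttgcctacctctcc
Ccl9: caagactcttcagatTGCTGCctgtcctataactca
Ccl6: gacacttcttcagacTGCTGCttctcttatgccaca
Ccl4: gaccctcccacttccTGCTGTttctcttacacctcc
The stretches make the family resemblance visible, and also how far the genes have diverged around it: the cysteine codons are TGCTGT in Ccl4 and Ccl12 and TGCTGC in the other stretches. Over the whole coding sequences of the 45 pairs, Ccl3 and Ccl4 were the most alike at 67.0% identical bases, followed by Ccl7 and Ccl11 at 66.3%. Ccl6 and Ccl9, and also Ccl8 and Ccl12, had 64.8%, and the lowest pair was Ccl2 and Ccl5 at 37.5%. The longest identical run in any pair was 23 bases, between Ccl6 and Ccl9. Genes on the opposite strand overlap 3 members and had almost no counts: Gm17268 (Ccl2) had 0 counts over the 7 libraries, ENSMUSG00000120024 (Ccl3) 8 and E230016K23Rik (Ccl6) 28.

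The libraries held 30478997 to 39992605 assigned counts each, and 85.5% to 88.8% of the low counts were even numbers, the pattern left when each mate is counted on its own. Levels are given as normalized CPM, that is counts scaled to library size by the TMM method, and 3 read pairs in a library corresponded to 0.150 to 0.197 CPM. Ffar2 lay between 32.0 and 37.5 normalized CPM in the controls and between 1.15 and 2.58 in Adipoq-F2-KO, so every library matched its label. The adipocyte gene Adipoq lay at 3452 to 3762 and 2419 to 3683 normalized CPM. Mitochondrial transcripts took 4.41% to 5.77% of control counts and 6.61% to 10.3% of Adipoq-F2-KO counts, and genes of germ cells and the epididymis summed to 122 normalized CPM in Adipoq-F2-KO 2 and 18.4 in Adipoq-F2-KO 3, against at most 2.66 in each of the other 5.

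All 10 members passed the filter on low counts, and all 10 had a positive log2 fold change of Adipoq-F2-KO over control. The same held for 50.4% of the 17039 genes tested. With edgeR's quasi-likelihood test and Benjamini-Hochberg adjustment over all tested genes, 3 members rose at the adjusted p threshold of 0.05, namely Ccl2, Ccl7 and Ccl4, against a background of 0.798% of genes called higher and 1.02% called in either direction. No member fell (background 0.217%), and no member had a negative change at an unadjusted p under 0.05, nor did DESeq2 call one lower. For 6 members every Adipoq-F2-KO library lay above every control library, against 8.86% of all genes, and the same number passed an unadjusted p under 0.05 with a positive change, against 10.5%. For 3 members, Ccl2, Ccl3 and Ccl4, the log2 fold change was at least 1, against 5.93% of all genes. The median log2 fold change of the 10 members was 0.76 and that of all tested genes 0.0037. The members were proposed with earlier results of these data known, so these counts describe the family and are not independent evidence for it.

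**Figure D1:**
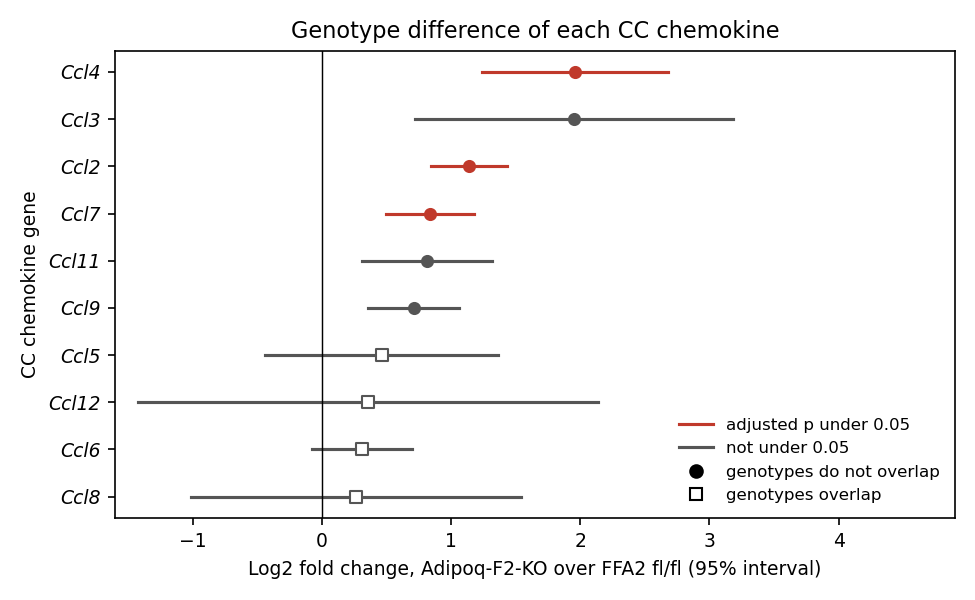
Log2 fold change (Adipoq-F2-KO over FFA2 fl/fl) of each CC chemokine gene from edgeR with its 95% confidence interval, sorted by size, in red where the adjusted p was under 0.05 and as a filled circle where the genotypes did not overlap. All 10 estimates lie above 0, those of Ccl4 and Ccl3 at 1.96 and 1.95, and the intervals of Ccl5, Ccl12, Ccl6 and Ccl8 include 0.

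Ccl2 (ENSMUSG00000035385, 11:81926397-81928279), the main ligand of CCR2 and the best known monocyte attractant of fat, was the most abundant member. It measured 157, 192 and 152 normalized CPM in the control libraries 1 to 3 and 290, 378, 397 and 403 across Adipoq-F2-KO 1 to 4. The groups did not overlap, and the library Adipoq-F2-KO 1 was the lowest of its group by a wide margin. The means were 167 ± 22 (SD, n = 3) and 367 ± 52.6 (SD, n = 4), a 2.20-fold difference. The log2 fold change was 1.14 (SE 0.13, 95% confidence interval 0.84 to 1.43) with an adjusted p of 0.0178 in edgeR, and Ccl2 ranked 3 by p among all genes tested. The exact two-sided permutation test gave 0.0286, the smallest p that the 35 splits of 3 against 4 libraries allow. Leaving out 1 library at a time kept the log2 fold change between 1.08 and 1.25, and the call was lost without FFA2 fl/fl 1 (edgeR adjusted p 0.145) and without FFA2 fl/fl 3 (0.0567), fits in which 0 of all tested genes were called higher.

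Ccl7, another monocyte attractant that binds CCR2, lies next to Ccl2 on the same strand (ENSMUSG00000035373, 11:81936538-81938351). It measured 36.4, 40.3 and 37.5 normalized CPM in the controls and 47.6, 70.5, 75.0 and 79.1 in Adipoq-F2-KO. The groups were apart, with Adipoq-F2-KO 1 again the lowest of its genotype and close to the controls. The means were 38.1 ± 2.01 (SD, n = 3) and 68.0 ± 14.1 (SD, n = 4), 1.79-fold. The log2 fold change was 0.84 (SE 0.16, interval 0.50 to 1.18) with an edgeR adjusted p of 0.0396, and the exact permutation p was 0.0571. The direction held in every leave-one-out fit (0.76 to 0.97), but the call held only without Adipoq-F2-KO 1 and without Adipoq-F2-KO 4. The edgeR adjusted p became 0.207, 0.0716 and 0.157 without control 1, 2 and 3, and 0.0677 and 0.0734 without Adipoq-F2-KO 2 and 3.

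Ccl4 (ENSMUSG00000018930, 11:83553410-83555509), an attractant of T cells and monocytes, was scarce in the controls. Its counts were 44, 34 and 30 in the controls and 104, 106, 178 and 129 in Adipoq-F2-KO, or 1.17, 0.857 and 0.879 against 2.61, 3.22, 4.92 and 4.38 normalized CPM. No Adipoq-F2-KO library came near the control range. The log2 fold change was 1.96 (SE 0.33, interval 1.24 to 2.68) with an edgeR adjusted p of 0.0332 and an exact permutation p of 0.0286. The point estimate was the largest of the 10, although that of Ccl3 was within its error. In the leave-one-out fits the value ranged from 1.80 to 2.12, and the call held without Adipoq-F2-KO 1 or 4 only. Without control 1, 2 or 3 the edgeR adjusted p was 0.196, 0.0669 or 0.134, and without Adipoq-F2-KO 2 or 3 it was 0.0570 or 0.0689.

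Ccl3 (ENSMUSG00000000982, 11:83538670-83540181), the neighbour and closest sequence relative of Ccl4 and a ligand of CCR1, was the lowest member per kb in the controls. The counts were 20, 10 and 12 against 41, 29, 56 and 72, or 0.534, 0.252 and 0.351 against 1.03, 0.881, 1.55 and 2.44 normalized CPM. The groups did not overlap, and Adipoq-F2-KO 4 was the highest. The log2 fold change of 1.95 (SE 0.56, interval 0.72 to 3.18) did not pass the test in edgeR (adjusted p 0.114; exact permutation p 0.0571) and did in DESeq2 (adjusted p 0.0290). The ratio of Ccl4 to Ccl3 per kb lay between 2.55 and 3.95 in the controls and between 2.08 and 4.24 in Adipoq-F2-KO, which overlap.

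Ccl11 (ENSMUSG00000020676, 11:81948649-81953781), or eotaxin, recruits eosinophils through CCR3 and is made largely by stromal cells. It measured 25.6, 26.5 and 22.1 normalized CPM in the controls and 31.5, 31.2, 46.3 and 64.8 in Adipoq-F2-KO. All 4 values exceeded the controls, 2 of them by little. The log2 fold change was 0.81 (SE 0.23, interval 0.31 to 1.31), with an edgeR adjusted p of 0.110, an exact permutation p of 0.0857 and a DESeq2 adjusted p of 0.0102. Its receptor gene Ccr3 lay between 0 and 0.644 normalized CPM in every library, and of the eosinophil genes Epx had no count in any of the 7, Siglecf at most 0.543 and Prg2 at most 0.702 normalized CPM. The sum of 10 eosinophil and mast cell markers was 13.0 to 14.8 in the controls. In Adipoq-F2-KO it was 31.7 in library 4, the library highest in Ccl11, and 16.2 to 18.3 in the others. Most of the sum came from Kit (10.8 and 18.1 on average, edgeR adjusted p 0.101), which other cells also express. The mast cell protease genes Tpsb2 and Mcpt4 had negative log2 fold changes of -1.03 and -0.38 that did not pass the test. Their part in the Ccl11 difference was not tested.

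Ccl9 (ENSMUSG00000019122, 11:83463745-83469462) and Ccl6 (ENSMUSG00000018927, 11:83478708-83483913) are neighbouring genes on the minus strand whose products act on CCR1 and are typical of mouse myeloid cells. Ccl9 measured 14.9, 18 and 18.5 normalized CPM in the controls and 25.1, 32.2, 33.2 and 21.8 in Adipoq-F2-KO, without overlap. Its log2 fold change was 0.71 (SE 0.16, interval 0.36 to 1.06), just short of the threshold in edgeR (adjusted p 0.0588) and past it in DESeq2 (0.00403) and in edgeR without Adipoq-F2-KO 4 (0.0317). Ccl6 measured 21.5, 21.3 and 24 against 26.7, 29.6, 35.2 and 18.9, so that Adipoq-F2-KO 4 fell below every control. Its log2 fold change was 0.31 (SE 0.18, interval -0.08 to 0.70; edgeR adjusted p 0.384), and it was 0.17 without Adipoq-F2-KO 3. Relative to each other, per kb of exon, the ratio of Ccl9 to Ccl6 was 0.409 to 0.499 in the controls and 0.554 to 0.681 in Adipoq-F2-KO, and the ranges were apart.

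Ccl5, Ccl8 and Ccl12 were low in both genotypes and gave overlapping groups. Ccl5, a T cell and natural killer cell chemokine, measured 0.961, 1.76 and 0.879 normalized CPM against 1.51, 1.15, 2.21 and 1.76. Its log2 fold change was 0.46 (SE 0.41, interval -0.44 to 1.37, edgeR adjusted p 0.595) and 0.85 without FFA2 fl/fl 2. In that library T and NK cell markers summed to 15.3 (other controls 4.67 and 6.12) and B cell markers to 27.3 (1.34 and 0.996). Adipoq-F2-KO 3 had the highest Ccl5 and B cell sum of its genotype, and Adipoq-F2-KO 4 the highest T and NK cell sum. The part of these cells was not tested. Ccl8, a ligand of CCR8 in the mouse, measured 0.908, 0.806 and 1.93 against 3.06, 0.790, 0.664 and 1.29. Its log2 fold change of 0.26 (SE 0.58, interval -1.02 to 1.54; edgeR adjusted p 0.855) rested on Adipoq-F2-KO 1 and was -0.41 without that library. Ccl12, the mouse-specific CCR2 ligand, measured 0.694, 0.252 and 0.351 against 0.351, 0.365, 0.166 and 1.36 (log2 fold change 0.36, SE 0.81, interval -1.42 to 2.14; edgeR adjusted p 0.860), and without Adipoq-F2-KO 4 the change was -0.55. The upper limit of each of these intervals exceeds 1 on the log2 scale, so a doubling lay inside all 3.

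For the order of levels among the members, values were taken per kb of summed exon length. In the controls the order was Ccl2 at 147 normalized CPM per kb, Ccl7 at 47.6, Ccl11 at 22.9, Ccl6 at 12.4 and Ccl9 at 5.63, with each of these 5 apart from the next in every library. Below them came Ccl8 at 2.38, Ccl4 at 1.47, Ccl5 at 1.25, Ccl12 at 0.806 and Ccl3 at 0.495, where neighbouring ranges overlapped. In Adipoq-F2-KO the top of the order was the same, with Ccl2 at 323, Ccl7 at 84.9, Ccl11 at 40.2, Ccl6 at 15.4 and Ccl9 at 9.22. There only Ccl2 and Ccl11 were apart from the gene ranked next, and all other neighbouring ranges overlapped. Ccl4 at 5.73 then ranked above Ccl8 at 2.84, and Ccl3 at 1.93 above Ccl5 at 1.73 and Ccl12 at 1.04. The deposited exon lengths of some members include non-coding transcripts, and with the length of the coding transcript Ccl5 moved above Ccl4 in the controls and above Ccl8 and Ccl3 in Adipoq-F2-KO, an alternative chosen after seeing the data. Without any length correction Ccl5 came above Ccl4 in the controls, and in Adipoq-F2-KO Ccl9 came above Ccl6 and both Ccl5 and Ccl3 above Ccl8.

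**Figure D2:**
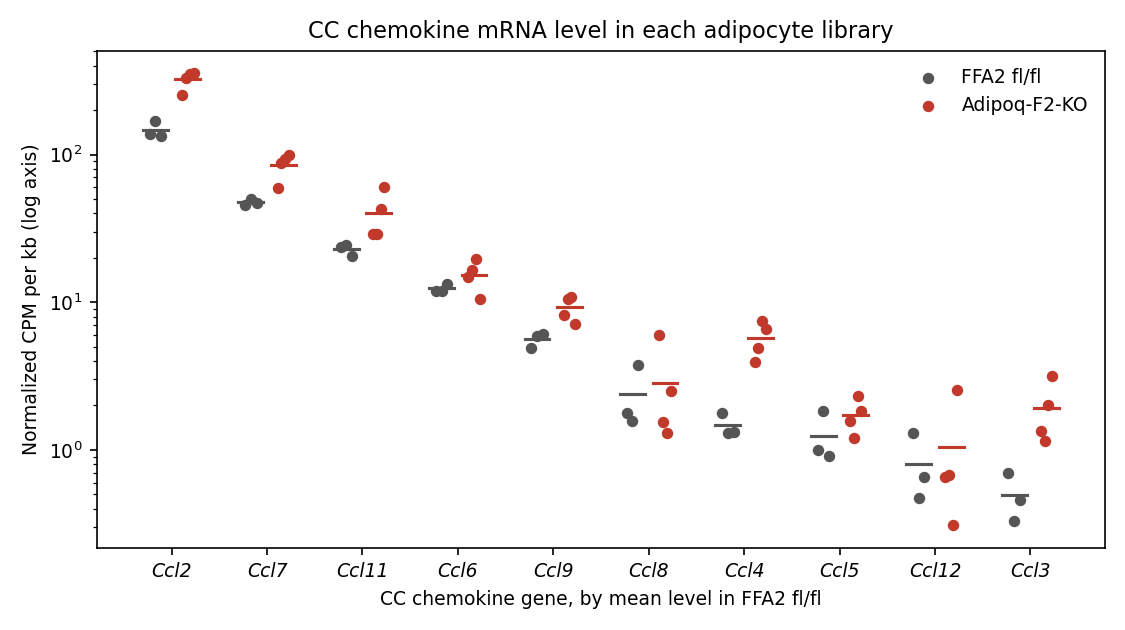
Normalized CPM per kb of exon (log axis) of the 10 CC chemokine genes, 1 point per library and a bar at the mean of each genotype, sorted by the FFA2 fl/fl mean. Ccl2 stands above all others, and the Adipoq-F2-KO points lie above every control point for Ccl2, Ccl7, Ccl11, Ccl9, Ccl4 and Ccl3.

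Because Ccl2 was so far ahead, it set the total. It made up 58.7% to 63.2% of the members' summed per-kb level in the controls and 64.8% to 68.4% in Adipoq-F2-KO. Summed normalized CPM of the 10 genes ran from 258 to 302 in the controls and from 429 to 599 in Adipoq-F2-KO, and without Ccl2 from 103 to 110 and from 139 to 199. The ratio of Ccl2 to its neighbour Ccl7 per kb was 2.85 to 3.35 in the controls and 3.59 to 4.29 in Adipoq-F2-KO, so the ranges of this ratio did not overlap either. Both clusters held genes of each kind. In the Ccl2 cluster 2 of 5 genes were called and 3 had groups that did not overlap, and in the Ccl4 cluster these numbers were 1 and 3, beside 0.798% and 8.86% of all tested genes.

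Among libraries of 1 genotype the members did not move as a block. After the genotype mean was taken off each library's log2 CPM, Ccl2 and Ccl7 had a Pearson r of 0.91 over the 7 libraries and Ccl6 and Ccl9 an r of 0.87, both pairs of neighbours. Of the 45 pairs 1 more exceeded 0.8, Ccl3 and Ccl11 (r 0.82), which lie in different clusters. The neighbours Ccl3 and Ccl4 had an r of 0.78. Ccl12 ran opposite to Ccl6 and Ccl9 (r -0.88 and -0.87), and Ccl8 opposite to Ccl2 (r -0.81). By rank these opposite pairs were weaker (Spearman rho -0.54, -0.71 and -0.61). The rho was 0.86 for Ccl2 and Ccl7 and 0.89 for Ccl6 and Ccl9. Adipoq-F2-KO 4 had the highest Ccl2, Ccl7, Ccl11, Ccl3 and Ccl12 and the lowest Ccl6 and Ccl9 of its genotype. All these values share the same few libraries and the same scaling factor per library, and they are descriptions only.

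**Figure D3:**
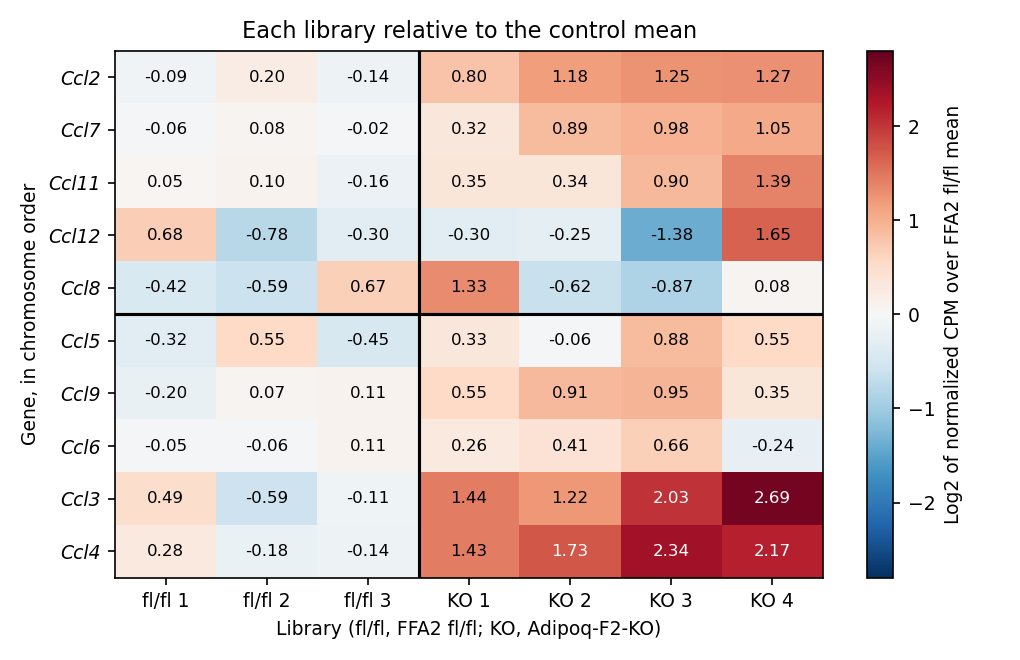
Log2 ratio of each library's normalized CPM to the control mean, for the 10 CC chemokine genes (rows, in chromosome order) and 7 libraries (columns). The rows of Ccl2, Ccl7, Ccl3 and Ccl4 are raised in all 4 Adipoq-F2-KO columns, whereas Ccl12 is raised only in the column of Adipoq-F2-KO 4 among the 4 and Ccl8 mainly in that of Adipoq-F2-KO 1.

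Several cell types in an adipocyte isolate could be the source of these transcripts, and a bulk library cannot tell fewer or more cells of a type from less or more RNA per cell. Of 25 macrophage markers 24 were tested, 21 had a positive change and 3 rose, namely Lyz2, Cd68 and Clec4e. Over all tested genes 50.4% had a positive change and 0.798% were called higher. For 13 of the 24 every Adipoq-F2-KO library lay above every control library, against 8.86% of all tested genes. Mertk, Lyve1 and Cd163 had negative log2 fold changes of -0.42, -0.38 and -0.12, none of which passed the edgeR test. The summed macrophage marker level was 537 to 597 normalized CPM in the controls and 712 to 814 in Adipoq-F2-KO, with the defining gene Adgre1 at 11.4 and 19 on average, so none of the libraries lacked macrophage RNA. The list also holds the receptor gene Ccr2. The sum was 1.31-fold higher in Adipoq-F2-KO on average. Its largest parts were Mertk (93.2 normalized CPM in the controls and 69.8 in Adipoq-F2-KO on average) and Lyz2 (90.8 and 147). Percentages of the sum therefore depend on the markers listed. As a percentage of that sum in the same library, Ccl2 was 25.4% to 32.6% in the controls and 39.3% to 53.1% in Adipoq-F2-KO. Ccl4 was 0.145% to 0.219% and 0.353% to 0.657%. For Ccl7 the same percentage was 6.28% to 6.84% and 6.44% to 10.01%, which overlap at Adipoq-F2-KO 1. Within genotypes the deviations of Ccl2, Ccl7 and Ccl4 had r values of 0.35, 0.39 and 0.10 with the macrophage sum, and those of the other members ran from -0.50 for Ccl6 and -0.25 for Ccl9 to 0.64 for Ccl11. The part of macrophages in the chemokine differences was not tested.

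Markers of other cell types were read the same way. T and NK cell markers summed to 4.67 to 15.3 normalized CPM in the controls and 7.30 to 11.3 in Adipoq-F2-KO, and 6 of 14 could be tested, none called. Of 12 neutrophil markers 4 were tested and none called. Their sum was 10.3 to 11.8 and 14.1 to 16.5 normalized CPM, ranges that were apart, with Mmp9, which is not specific to neutrophils, the largest part (6.09 and 10.5 on average, edgeR adjusted p 0.0647). Of the 4 tested, 2 had a negative log2 fold change, Elane (-0.69, groups apart) and S100a8 (-0.18), and the defining gene Ly6g had no count in any library. Fibroblast progenitor markers had 13 of 15 positive changes and endothelial markers 11 of 11, with medians of 0.41 and 0.46 and none called. Among all tested genes 50.4% had a positive change. The endothelial sum was 1151 to 1524 normalized CPM in the controls. It was 1782, 1570 and 1604 in Adipoq-F2-KO 1 to 3 and 2465 in Adipoq-F2-KO 4. That last library also had the highest erythroid sum (372, at most 239 in the others) and the lowest adipocyte marker sum. Of the members it was highest in Ccl2, Ccl7, Ccl11, Ccl3 and Ccl12 and the lowest of its genotype in Ccl6 and Ccl9. The fibroblast sum was 1350 to 1717 in the controls and 1714 to 2062 in Adipoq-F2-KO. For 14 adipocyte markers 1 change was positive and none was called, and their sum was 69933 to 77182 in the controls and 56187 to 70230 in Adipoq-F2-KO. The 16 tested genes that tissue dissociation induces had a median log2 fold change of -0.02, with 8 positive and none called. The 6 B cell markers had a median of -0.32, the 8 mesothelial markers one of -0.15 and the 5 erythroid markers tested one of 0.59, and no gene of these lists or of the eosinophil and mast cell list (5 of 10 tested) or the germ cell and epididymal list (4 of 9 tested, median 6.17) was called. The part of these cell types in the chemokine differences was not tested.

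The rest of the CC system was followed through lists of genes. The rows of 13 other CC ligand genes were read, of which 8 were tested and none was called. Of these 8, 6 had a positive change, beside 50.4% of all tested genes. The most abundant per kb were Ccl24 (log2 fold change 0.77), Ccl21a (-0.45) and Ccl27a (0.25), and each overlapped between the genotypes. Ccl20, Ccl21b and Ccl26 had no count in any library. Of 15 genes for receptors that bind CC chemokines 9 were tested, 7 had a positive change and none passed, with Ccrl2, Ackr1 (log2 fold change 0.86) and Ccr7 the most abundant per kb. Receptors of some members are named here after their values were seen. Ccr2, which Ccl2, Ccl7 and Ccl12 bind, measured 0.801, 1.46 and 1.35 normalized CPM in the controls and 2.56, 3.28, 2.13 and 4.61 in Adipoq-F2-KO, with a log2 fold change of 1.38 and an edgeR adjusted p of 0.098. Ccr1 measured 0.854, 1.01 and 0.644 against 1.96, 1.64, 3.15 and 2.31 (1.43, edgeR adjusted p 0.097). In both receptor genes the groups were apart, as they were for Ccrl2, a chemokine-binding receptor without known signaling (log2 fold change 0.84, edgeR adjusted p 0.055).

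Cytokines known to induce CC chemokines showed 10 positive changes among 10 genes tested of 13, and 3 of them rose. Over all tested genes the shares were 50.4% with a positive change and 0.798% called higher. Csf1, the macrophage growth factor, measured 56.9, 63.7 and 69.2 normalized CPM in the controls and 108, 175, 143 and 179 in Adipoq-F2-KO (log2 fold change 1.26, edgeR adjusted p 0.019). Tnf, which drives Ccl2 transcription in many cell types, had 12.6 to 16.8 against 30.8 to 63.8 (1.65, edgeR adjusted p 0.019), and Il6 18.9 to 31.0 against 41.8 to 83.3 (1.47, edgeR adjusted p 0.033). The groups of all 3 genes were apart. NF-kB is a pathway through which Tnf can act on chemokine genes. Of 17 genes for NF-kB subunits and their feedback inhibitors, 16 changes were positive, beside 50.4% of all tested genes. Against 0.798% of all tested genes called higher, 3 of the 17 rose. These were Bcl3 (60.5 ± 13.4 against 110 ± 20.7 normalized CPM, SD, log2 fold change 0.87), Nfkb2 (55.0 ± 4.70 against 85.1 ± 8.47, 0.63) and Tnip3 (1.30 ± 0.322 against 3.69 ± 0.550, 1.5), with edgeR adjusted p of 0.0446, 0.0332 and 0.0418. The most abundant genes of this list, Zfp36 (log2 fold change 0.04), Nfkbia (0.14) and Nfkbiz (-0.18), overlapped between the genotypes. The median of the list was 0.42. The part of the inducers and of NF-kB in the chemokine differences was not tested.

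**Figure D4:**
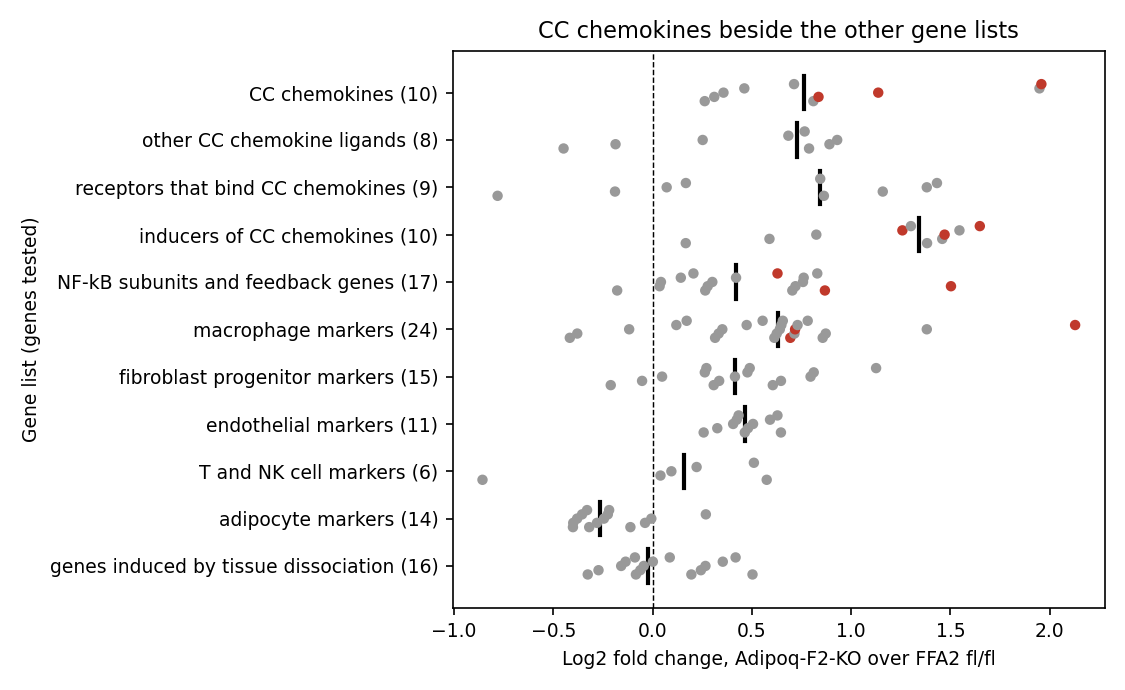
Log2 fold change (Adipoq-F2-KO over FFA2 fl/fl) of each tested gene in 11 gene lists, 1 point per gene, in red where called higher, with a bar at the list median and a dashed line at the median of all tested genes. The CC chemokines have a median of 0.76, the inducers 1.34, the macrophage markers 0.63 and the adipocyte markers -0.26.

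Because NF-kB and AP-1 bind short motifs near chemokine genes, the promoters in hand were searched. RefSeq promoter windows (GRCm38.p6) of 300 bases were found for 5 members, Ccl12, Ccl8, Ccl9, Ccl6 and Ccl3, and were searched on both strands beside 32841 windows of the same length. No window was available for Ccl2, Ccl4, Ccl5, Ccl7 or Ccl11, so no member called in edgeR was searched. The neighbours Ccl9 and Ccl6, neither called in edgeR, were chosen for print after their ratio was seen to have separate ranges in the genotypes. They are given as the 100 bases before their starts on the minus strand, chr11:83578637-83578736 and chr11:83593088-83593187. Capitals mark, in Ccl9, the TATAAA matches on both strands, then the AP-1 match and the kappaB match, and Ccl6 has no match.
Ccl9: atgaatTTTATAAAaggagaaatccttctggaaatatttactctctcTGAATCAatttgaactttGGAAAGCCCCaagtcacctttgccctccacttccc
Ccl6: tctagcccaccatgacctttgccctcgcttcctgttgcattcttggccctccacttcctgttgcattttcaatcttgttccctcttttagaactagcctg
The kappaB motif was found in 1 of the 5 windows and in 8.46% of all windows, and AP-1 (TGANTCA) in 1 and in 7.81%, in both cases the Ccl9 window. TATAAA occurred in 3 windows, of Ccl9, Ccl12 and Ccl8, and in 13.6% of all windows. The C/EBP motif TTNNGNAAT occurred in the Ccl3 window only (11.5% of all), and neither the interferon response motif ISRE (3.44%) nor GGGCGG (35.7%) in any of the 5. A match describes letters in the window and not a bound site. The part of any motif in the levels or in the ratio of Ccl9 to Ccl6 was not tested.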

How the data were processed

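RNA of mature perigonadal adipocytes from 3 FFA2 fl/fl and 4 Adipoq-F2-KO samples was sequenced as stranded, polyadenylated, paired-end libraries. The authors deposited 1 table of raw gene counts for all 7 libraries, and the submitters' processing notes list Trimmomatic, STAR, featureCounts, DESeq2, GRCm38 and mm10 without versions. No value in the table was normalized. Whether featureCounts used strand is not given in the sources used here. Of 57010 identifiers 52029 had a symbol. Groups came from the genotype labels.

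Counts were filtered with filterByExpr (minimum count 10), scaled by TMM and fitted with edgeR 4.0.16 (R 4.3.3), genotype being the only term, with Benjamini-Hochberg adjustment over 17039 genes. Standard errors were derived from the fold change and the F statistic. Single values had an exact two-sided permutation test over 35 splits. Alternatives were DESeq2 1.42.0, limma 3.58.1 voom, RLE scaling, no filter, halved counts, removal of mitochondrial genes with the most abundant unnamed gene, a replicate block and leaving out each library. The fit was tested on simulated data first. Named genes were the 10 members, every called gene of the other lists, the 3 most abundant per kb in each list of CC ligands, receptors, inducers and NF-kB genes, and stated exceptions. The members and all lists were chosen with earlier results of these data known. Coding sequences were compared base by base, in place of the planned protein comparison. Intervals of fold changes come from the edgeR fit and include the spread between samples, whereas the level of 3 read pairs covers counting error only. The coding stretch of 1 member and the values of 1 receptor gene are not reported here.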

Additional observations from a re-analysis of the deposited data

Results flagged for a closer look

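In Adipoq-F2-KO 4, Ccl12 measured 1.36 normalized CPM (40 counts), while the other 3 libraries of that genotype had 0.166, 0.351 and 0.365. This library stood apart from its group by more than Dixon's 95% limit for 4 samples. Chance sets off this limit in about 1 of 20 groups, and 10 genes were examined in this way.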

How the results depend on the processing

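The number of members called higher was 3 with edgeR, 6 with DESeq2 (Ccl3, Ccl9 and Ccl11 in addition) and 5 with edgeR without the filter (Ccl9 and Ccl11 in addition), and the cause was not tested. The share of all fitted genes called higher was 0.798% of 17039, 2.37% of 28515 and 3.76% of 28515 in these 3 fits. For DESeq2 the 28515 include any genes that its own low-count filter left without an adjusted p. Its 2.37% is therefore a lower bound for the share among genes with an adjusted p. When each library was left out in turn, the number of members called higher ranged from 0 to 4. It was 0 without FFA2 fl/fl 1 or 3 and 1 without FFA2 fl/fl 2 or Adipoq-F2-KO 2 or 3. It was 3 without Adipoq-F2-KO 1 and 4 without Adipoq-F2-KO 4. Over all genes, 0 were called higher without FFA2 fl/fl 1 or 3, 35 without FFA2 fl/fl 2, 8 and 13 without Adipoq-F2-KO 2 and 3, and 151 and 136 without Adipoq-F2-KO 1 and 4. No setting called a member lower. The direction reversed only for genes that were never called: Ccl12 had a log2 fold change of -0.0025 with limma voom, -0.51 with the replicate block and -0.55 without Adipoq-F2-KO 4 (leave-one-out range -0.55 to 0.87), and Ccl8 had -0.41 without Adipoq-F2-KO 1 (range -0.41 to 0.77). Deviations of same-numbered libraries correlated at 0.031, -0.024 and -0.020. With so few libraries these values cannot settle whether equal replicate numbers mark pairs, and the labels do not say. A replicate block still called 3 members, with Ccl9 (adjusted p 0.0153) in place of Ccl4 (0.0521), and 224 genes overall against 173. In either direction DESeq2 called 869 genes, edgeR without the filter 1403, and leave-one-out fits 1 to 178. Leave-one-out values of 3 more uncalled members spanned over 1.5 times, from 0.29 to 0.85 for Ccl5, from 0.17 to 0.45 for Ccl6 and from 0.55 (without Adipoq-F2-KO 4) to 0.94 for Ccl11. Ccl3, Ccl5, Ccl8 and Ccl12 had at most 122 counts in any library. With halved counts the standard errors of Ccl3, Ccl5 and Ccl8 were 0.54, 0.41 and 0.58, against 0.56, 0.41 and 0.58, and Ccl12 did not pass the filter.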

Other observations

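Among 13507 genes with at least 1 normalized CPM on average, those whose deviations from the genotype means ran most like Ccl2 over the 7 libraries were Ccnb2 (r 0.996), Snx16 (0.988) and Rab2b (0.983). For Ccl7 they were 1810013L24Rik (0.997), Gm21781 (0.993) and Dgkg (0.991), and for Ccl4 Tmem218 (0.989), Ift57 (0.985) and Usp8 (0.984). None of these is a chemokine. With so few libraries and so many genes compared, values of this size are a description of these samples only.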
